A study of Mus musculus with 3 samples.

Results

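The Krüppel-like factor (Klf) genes Klf2, Klf3, Klf4, Klf6, Klf7, Klf9, Klf10, Klf11, Klf13 and Klf16 were described in the cytosolic RNA of lipid A-stimulated mouse macrophages. They were chosen by gene symbol, with earlier results of these data known. All 10 were found among 55536 annotated genes, of which 22028 are protein-coding. The study holds 1 group of 3 libraries, biological replicates 1 to 3, and no unstimulated sample was analysed here, so no level given here can be read as a change on lipid A. Each library was made from 1 µg of ribosomal RNA-depleted total RNA of primary C57BL/6J bone marrow-derived macrophages that had received lipid A at 100 ng/ml for 60 min. Lipid A is the part of bacterial lipopolysaccharide that Toll-like receptor 4 recognises. The age and sex of the mice were not collected. The libraries have separate biosamples and a shared donor entry, so p-values measure only how these samples vary, and that variation may be technical.

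Klf proteins are transcription factors that end in a block of C2H2 zinc fingers, which bind GC-rich and CACCC-containing DNA, as do those of the related Sp proteins. The remainder of each protein sets the partner. One branch of the family, with Klf2, Klf4, Klf6 and Klf7, carries activation domains. Klf3 recruits the corepressor CtBP, and Klf9, Klf10, Klf11, Klf13 and Klf16 carry a motif that binds the corepressor Sin3. In macrophages Klf2 is known to restrain inflammatory gene expression, Klf4 is tied to monocyte differentiation and alternative activation, and Klf6 is known to promote inflammatory gene expression.

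The total expected count was between 64110863 and 72057046 per library. Of 10 macrophage markers 9 were called above the median gene and 1, Marco, below it, by the test described below for a level more than 2-fold away. Of all genes tested, 26.3% were called above and 24.5% below. The summed level of the macrophage markers was 9587, 4860 and 5947 TPM (a length-corrected share of the library) in replicates 1, 2 and 3. The summed level was 7.37, 3.81 and 4.77 TPM for 5 monocyte markers, and 12.4, 11.1 and 9.86 TPM for 6 neutrophil markers, nearly all of it S100a8 at 10.1 ± 1.33 TPM (SD, n = 3). It was 3.81, 1.94 and 2.16 TPM for 6 endothelial markers, mostly Kdr, and 1.55, 0.98 and 1.12 TPM for 5 erythroid markers, mostly Epor, with Hba-a1 and Hbb-bt at 0. The sums for 6 T cell, 4 B cell and 5 fibroblast markers were at most 0.15 TPM in any library. In these bulk libraries, fewer cells of a type and less RNA per cell cannot be told apart.

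The promoter windows of 4 members are shown because they belong to the most abundant member, to Klf2 and Klf4, and to the member with the most GC boxes. Each holds 250 bases upstream of the RefSeq start on GRCm38.p6, and capitals mark the GC box, whose letters are GGGCGG, and the boxes named for their letters, CACCC and CCAAT. Both strands were searched, and neighbouring motifs may overlap.
Klf6, chr13:5861239-5861488, plus strand: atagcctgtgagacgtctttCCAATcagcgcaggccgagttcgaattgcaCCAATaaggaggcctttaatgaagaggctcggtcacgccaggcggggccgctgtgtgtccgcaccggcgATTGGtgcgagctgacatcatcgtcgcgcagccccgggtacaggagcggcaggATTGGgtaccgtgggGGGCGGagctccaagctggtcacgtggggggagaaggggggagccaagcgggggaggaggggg
Klf2, chr8:72318812-72319061, plus strand: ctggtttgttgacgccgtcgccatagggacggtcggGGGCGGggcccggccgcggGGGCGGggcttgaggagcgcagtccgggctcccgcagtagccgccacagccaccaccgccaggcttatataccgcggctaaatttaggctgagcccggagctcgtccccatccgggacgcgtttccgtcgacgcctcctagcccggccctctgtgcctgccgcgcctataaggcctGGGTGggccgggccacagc
Klf3, chr5:64803271-64803520, plus strand: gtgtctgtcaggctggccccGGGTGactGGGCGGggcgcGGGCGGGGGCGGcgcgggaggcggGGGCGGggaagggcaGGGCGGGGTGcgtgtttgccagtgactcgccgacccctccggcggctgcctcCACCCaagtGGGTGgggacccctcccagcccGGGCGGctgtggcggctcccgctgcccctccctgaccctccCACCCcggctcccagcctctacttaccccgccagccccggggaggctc
Klf4, chr4:55532476-55532725, minus strand: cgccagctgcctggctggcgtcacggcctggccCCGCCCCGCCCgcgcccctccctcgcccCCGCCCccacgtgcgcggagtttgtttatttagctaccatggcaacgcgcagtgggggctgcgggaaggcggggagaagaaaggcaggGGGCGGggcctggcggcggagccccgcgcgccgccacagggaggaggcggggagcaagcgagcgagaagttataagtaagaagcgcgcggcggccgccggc

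RefSeq windows were found for 8 of 10 members, all except Klf10 and Klf16. The RefSeq start is not always the start of the gene coordinates given below. By those coordinates the Klf7 window lies within the gene, and the windows of Klf2, Klf3, Klf6 and Klf11 reach into it. The GC box, the site of Sp and Klf proteins, was present in 7 of these 8 windows, all except that of Klf9, and in 32.7% of 32851 mouse windows of the same length. Klf3 held 6 GC boxes, Klf4 and Klf11 held 4 each, and Klf6 held 1. The CACCC box was present in 5 of 8 member windows and in 52% of all windows. The CCAAT box, bound by NF-Y, was present in 4 of 8 member windows and in 33.8% of all windows, with 4 matches in Klf6. The letters of the core promoter element TATAAA were in none of the 8 windows and in 12.4% of all windows. Those of the cAMP response element, TGACGTCA, were in none of the 8 and in 1.55% of all windows. Klf9 had the only match to TGANTCA (AP-1 site), which overlaps its CACCC box, against 6.75% of all windows. No member window matched the NF-kB motif or the CArG box, which were in 7.25% and 1.47% of all windows. The median GC content was 71.4% over the member windows and 52.4% over all windows. A window with more G and C matches GGGCGG more readily and TATAAA less. The windows compared were not matched for GC content. A match is a run of letters and not a measured binding site.

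AU-rich elements in the 3′UTR are the sites at which proteins such as tristetraprolin mark messages for rapid decay. The sites of the 7-letter element TATTTAT in the leading transcripts are printed to show which members have it, and capitals mark the element (read as UAUUUAU in the RNA).
Klf6, bases 1218 to 1224 of the 3′UTR of Klf6-201: ctacgtctctTATTTATgccttgagga
Klf6, bases 1671 to 1677 of the 3′UTR of Klf6-201: acaccggctgTATTTATtatgtaacat
Klf2, bases 80 to 86 of the 3′UTR of Klf2-201: aacagactgcTATTTATtggaccttag
Klf7, bases 5912 to 5918 of the 3′UTR of Klf7-202: ccttctctggTATTTATaatatatcac
Klf10, bases 968 to 974 of the 3′UTR of Klf10-201: agtgtcttttTATTTATaggagttttt
Klf16, bases 677 to 683 of the 3′UTR of Klf16-201: ggaaagaaatTATTTATtgtcctctct
Klf11, bases 459 to 465 of the 3′UTR of Klf11-201: tttataaaaaTATTTATattgtgctca

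The 7-letter element was present in 6 of 10 members and in 27.3% of 8979 genes with a 3′UTR on their leading transcript. The core ATTTA was present in 10 of 10 members and in 66% of these genes. The 9-letter form TTATTTATT was in Klf16 alone among the members and in 6.79% of genes. The shorter letters are part of the longer ones, so the 3 counts overlap. The 3′UTRs of the members are long, with a median of 2718 bases against 930 bases over all 8979 genes. A longer 3′UTR has more places for a match. Per kb of 3′UTR the members had a median of 2.05 ATTTA against 1.27 over all genes. Among these genes the members' densities lay between the 37.2th percentile (Klf13) and the 77.7th (Klf7), and the difference was not tested. Klf7 had the most, with 18 ATTTA in 6266 bases, Klf6 had 7 in 3111 bases, and Klf13 had 3 in 5157 bases, the lowest density of the members at 0.582 per kb. Klf2 and Klf4 each had 1, in 737 and 982 bases.

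Klf6 was by far the most abundant member. It had 346.48, 233.98 and 234.45 TPM in replicates 1, 2 and 3, a mean of 272 ± 64.8 TPM (SD, n = 3), and lies at chr13:5861482-5870394 on the plus strand of GRCm38. Replicate 1 was highest. The median protein-coding gene of at least 1 TPM was also highest there, at 9.08, 5.76 and 6.86 TPM in replicates 1, 2 and 3. Klf6 ranked 136, 134 and 141 among the protein-coding genes of the 3 libraries. It held 80.5 ± 0.517% (SD, n = 3) of the summed TPM of the 10 members, which was 432, 288 and 292 TPM. Relative to the library's own median gene it stood 5.21 ± 0.09 higher on the log2 scale (SE), or 37.0-fold, with an adjusted p of 2.1e-07 by limma's treat test against a band of 1.

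**Figure D1:**
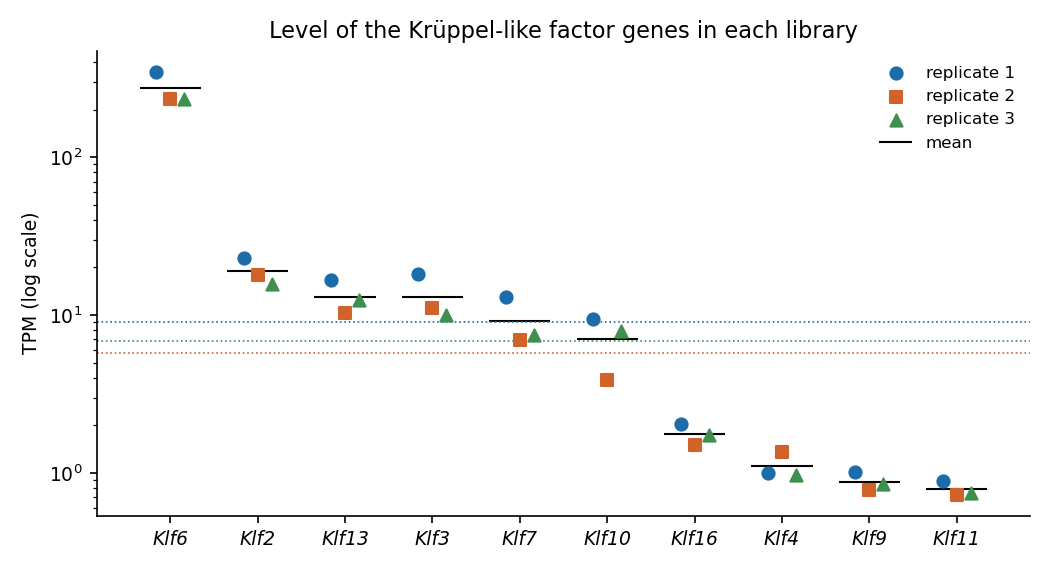
Level of each Klf gene in TPM on a log axis, with 1 point per library (n = 3) and a black bar for the mean; dotted lines show the median tested protein-coding gene of each library in that library's colour. Klf6 lies between 233.98 and 346.48 TPM, the next member Klf2 between 15.79 and 23.12 TPM, and Klf16, Klf4, Klf9 and Klf11 lie below all 3 median lines.

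The test asked whether a gene was more than 2-fold from the median gene, and 8 of 10 members had the mean of 1 TPM that it required. Of these 8, Klf6 and Klf2 were called above the median gene, Klf16 and Klf4 below it, and Klf3, Klf7, Klf10 and Klf13 were not called. Over all 9123 genes tested, 26.3% were called above and 24.5% below, so the 2 members on each side lie near the background. When all genes with any count set the median, Klf3, Klf7, Klf10 and Klf13 were called above it as well, at 2.39, 1.87, 1.46 and 2.42 on the log2 scale. The next paragraphs give the members by the branch of the family.

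Among the activating branch, Klf2 had 23.12, 17.89 and 15.79 TPM, a mean of 18.9 ± 3.77 TPM (SD, n = 3), at chr8:72319033-72321656 on the plus strand. It stood 1.38 ± 0.09 (log2, SE) above the median gene, or 2.61-fold, with an adjusted p of 0.0055 in limma. In kallisto's TPM, a second quantification of the same reads, its level was 0.93 on the log2 scale and no longer called (adjusted p = 1). It was not called either when genes needed a mean of 5 TPM, where its level was 0.46.

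Klf7, a factor known from neuronal development, had 13.01, 6.93 and 7.48 TPM, a mean of 9.14 ± 3.36 TPM (SD, n = 3), at chr1:64029447-64122282 on the minus strand. Its level of 0.30 ± 0.08 (log2, SE) was not called. The lincRNA Gm26649 lies on the opposite strand and overlaps 3196 exon bases of Klf7. It was given 2.3, 1.74 and 1.88 TPM, and since no source used here says whether the counting used strand, reads of the pair may not be told apart. The deposited posterior SD of the Klf7 count was 56.2, 48.1 and 51.8, against counts of 8181.65, 7142.08 and 6933.38, and at most 1.52 for any other member.

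Klf4, one of the factors used to reprogram cells to pluripotency, was the lowest of the activating branch. It had 1, 1.35 and 0.97 TPM, a mean of 1.11 ± 0.211 TPM (SD, n = 3), from 254, 560 and 350 counts, at chr4:55527143-55532466 on the minus strand. In TPM replicate 2 was its highest library, whereas the other members were all highest in replicate 1, as was the median gene. Against the library's median gene, Klf6 (5.32), Klf2 (1.62) and Klf16 (−1.86, log2) were also highest in replicate 2, where Klf4 stood at −2.01. Klf4 stood −2.59 ± 0.19 (log2, SE) from the median gene, 0.166-fold, with an adjusted p of 0.00022 in limma.

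Klf3, the CtBP-binding repressor, had 18.15, 11.03 and 10.05 TPM, a mean of 13.1 ± 4.42 TPM (SD, n = 3), at chr5:64803388-64832901 on the plus strand. Its level of 0.82 ± 0.10 (log2, SE) from the median gene was not called. Gm20033, on the opposite strand, overlaps 404 exon bases of Klf3 and was given 0.27, 0.21 and 0.19 TPM. As for Klf7, reads of this pair may not be told apart.

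In the Sin3-binding branch, Klf13 and Klf10 were the most abundant. Klf13, which is known to activate Ccl5 in T lymphocytes, had 16.55, 10.36 and 12.4 TPM, a mean of 13.1 ± 3.15 TPM (SD, n = 3), at chr7:63886351-63938915 on the minus strand. Its level against the median gene was 0.86, 0.84 and 0.84 on the log2 scale in replicates 1, 2 and 3, the narrowest range of the 8 tested members, and it was not called. With TPM rescaled over nuclear protein-coding genes it was called above the median gene, at 1.20 (adjusted p = 0.0082, limma). Klf10, known as a TGF-β-inducible early gene, had 9.41, 3.87 and 7.88 TPM, a mean of 7.05 ± 2.86 TPM (SD, n = 3), at chr15:38291463-38300706 on the minus strand. It was lowest in replicate 2, where it stood at −0.56 against the median gene (log2), and at 0.05 and 0.20 in replicates 1 and 3.

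The other Sin3-binding members were low. Klf16 had 2.03, 1.51 and 1.75 TPM, a mean of 1.76 ± 0.26 TPM (SD, n = 3), at chr10:80567124-80577321 on the minus strand. It stood −1.96 ± 0.08 (log2, SE) from the median gene, 0.257-fold, with an adjusted p of 3.4e-05 in limma. With no filter on low values neither Klf16 (adjusted p = 1) nor Klf4 (adjusted p = 0.56) was called in limma. Klf9, a glucocorticoid-responsive factor, had 1.01, 0.78 and 0.85 TPM, at chr19:23141226-23168134 on the plus strand. Klf11, related to Klf10, had 0.89, 0.73 and 0.75 TPM, at chr12:24651274-24662789 on the plus strand. Both had means under 1 TPM, 0.88 ± 0.118 and 0.79 ± 0.0872 TPM (SD, n = 3), and were not tested, although each rested on 310 or more counts in every library.

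In order of mean TPM the members ran Klf6, Klf2, Klf13, Klf3, Klf7, Klf10, Klf16, Klf4, Klf9 and Klf11. Neighbours were said to differ beyond their spread where the difference had the same sign in every library and its mean was over 2 SD of the differences. By this measure 5 of 9 neighbouring pairs differed. Klf6 exceeded Klf2 by 3.83 ± 0.11 (log2, SD, n = 3), Klf2 exceeded Klf13 by 0.54 ± 0.22, and Klf3 exceeded Klf7 by 0.52 ± 0.13. Klf10 exceeded Klf16 by 1.86 ± 0.48, and Klf9 exceeded Klf11 by 0.14 ± 0.05. The pairs Klf13 and Klf3 (0.03 ± 0.24), Klf7 and Klf10 (0.40 ± 0.45), Klf16 and Klf4 (0.63 ± 0.42), and Klf4 and Klf9 (0.29 ± 0.38) did not. The exact sign-flip test cannot go below p = 0.25 (2-sided) with 3 libraries, so no step can reach 0.05. The Klf2 step over Klf13 was not beyond its spread without replicate 1 (0.56 ± 0.31) or with kallisto's TPM (0.42 ± 0.21). With counts per kb of all annotated exon in place of TPM, Klf13 exceeded Klf3 beyond the spread, by 1.04 ± 0.23, and the difference of Klf3 from Klf7 turned to −0.62 ± 0.17, also beyond the spread. All annotated exons cover 11243 bases for Klf3, 7531 for Klf13 and 8131 for Klf7. Their leading transcripts have 5221, 6396 and 7662 bases. The part of these lengths in the changed differences was not tested. Without replicate 2 the Klf16 step over Klf4 passed the measure, at 0.87 ± 0.12. Without replicate 3 the Klf7 step over Klf10 passed it, at 0.64 ± 0.26, and the difference of Klf13 from Klf3 was −0.11 ± 0.03, also beyond the spread. Values without a replicate rest on 2 libraries, where the measure is passed more easily than with 3.

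Variation between the libraries was measured on CPM, counts relative to library size, scaled by TMM, edgeR's correction for composition. Of 10 members, 8 differed between libraries beyond counting noise by a chi-square test (adjusted p under 0.05), against a background of 62.5% of 13026 genes, which is not far from the members' share. Klf13 was the steadiest, with 134, 135 and 134 CPM, a coefficient of variation of 0.43% and an adjusted p of 0.87 in the chi-square test, although kallisto's estimated counts gave it an adjusted p of 0.028. Klf16 had 6.87, 8.05 and 7.82 CPM, with an adjusted p of 0.052 that crossed the threshold without replicate 3 (0.034), with no filter on low counts (0.044) and with kallisto's counts (0.035).

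Klf10 and Klf4 varied most. Klf10 had 35.9, 22.9 and 39.8 CPM, low in replicate 2 and alike in the others, with an adjusted p of 2.1e-70 in the chi-square test. Its biological coefficient of variation (edgeR's spread between libraries beyond counting noise) was 0.19, higher than in 98.7% of genes of its abundance, and 0.0988 without replicate 2. Klf4 had 3.86, 8.15 and 4.96 CPM, high in replicate 2 with a ratio of 2.11 between the highest and lowest library. Its biological coefficient of variation was 0.274, above 93.3% of genes of its abundance, and 0.216 without replicate 2, above 66.7%. Klf10 and Klf4 thus departed in opposite directions in replicate 2. The CPM of Klf6, Klf2, Klf16, Klf9 and Klf11 was also highest in replicate 2, by smaller ratios than for Klf4.

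Klf6 had 1853, 1995 and 1680 CPM, a coefficient of variation of 8.59%, and a chi-square of 1896, the largest of the members, from 121874, 137066 and 118607 counts. Klf2 had 52, 63.3 and 46.9 CPM, highest in replicate 2 (adjusted p = 7.7e-39, chi-square test). Klf3 had 106, 106 and 80.3 CPM, lower in replicate 3, and without that replicate its counts did not differ beyond counting noise (adjusted p = 0.85). Klf7 had 124, 104 and 98.2 CPM, highest in replicate 1 (adjusted p = 9.8e-51, chi-square test). Klf9 had 5.93, 7.16 and 6.61 CPM and Klf11 had 4.71, 6.07 and 5.31 CPM, both highest in replicate 2, with chi-square adjusted p-values of 0.034 and 0.0059 that missed the threshold without replicate 1 (0.33 and 0.11) or replicate 2 (0.18 and 0.2). The median biological coefficient of variation was 0.131 over the members and 0.122 over all genes tested.

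**Figure D2:**
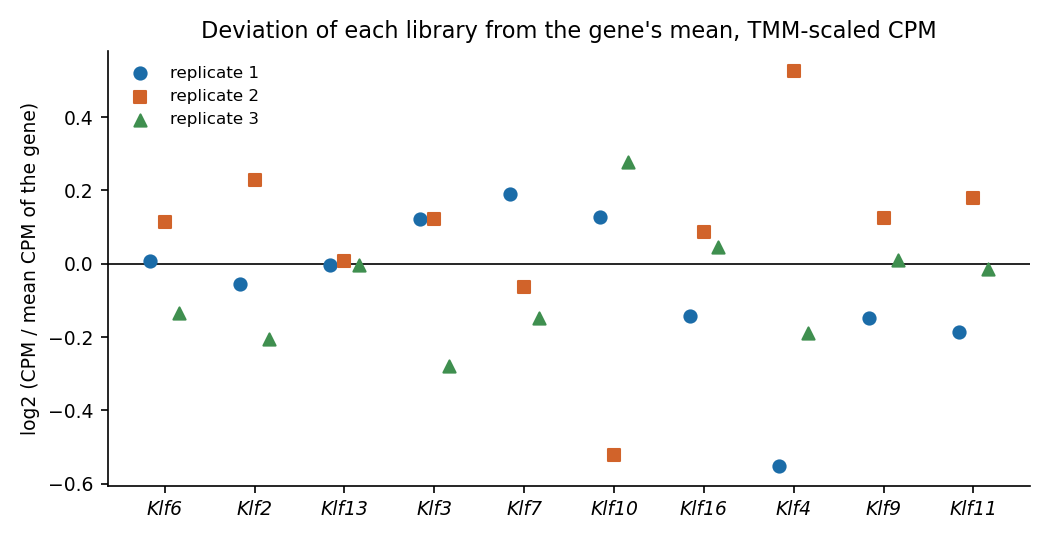
Deviation of each library from the gene's mean, as log2 of TMM-scaled CPM over the gene's mean CPM, with 1 point per library (n = 3 per gene, no error bars). Klf13 lies close to 0 in all libraries, while replicate 2 (squares) is the lowest point for Klf10, at 22.9 CPM, and the highest for Klf4, at 8.15 CPM.

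Replicate 2 also held the least Malat1 and Neat1. Malat1, a nuclear noncoding RNA, had 2227, 1002 and 2420 CPM in replicates 1, 2 and 3, and Neat1 had 301, 107 and 252 CPM. Transcripts annotated as retained introns took 3.35, 2.66 and 2.9% of the TPM of protein-coding genes. The part of this difference in the values of Klf10 and Klf4 was not tested.

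The 10 genes have 36 annotated transcripts, 27 of them protein-coding, and 1 protein-coding transcript led in each gene. The leading transcript held over 90% of the gene's TPM in 8 of 10 members, with a median of 98.4%, and 100% in every library for Klf2, Klf9, Klf11 and Klf16. Klf2 and Klf16 have only 1 annotated transcript, so their share could not be other than 100%. The share of all genes with such a leading transcript was not computed. Klf6-201, the leading transcript of Klf6, held 96.35, 98 and 97.64% in replicates 1, 2 and 3. The exceptions were Klf3 and Klf10. Klf3-201 held 82.55, 87.6 and 85.01%, and the 298-base Klf3-207, annotated as a target of nonsense-mediated decay, held 7.73, 5.88 and 5.61%. In kallisto's table the mean share was 63.9% for Klf3-201, and Klf7 was also under 90%, with 74.3% for Klf7-202 and 22.7% for the 553-base Klf7-203, which held 2.87% in the first table.

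Klf10 was divided between a pair of long transcripts, with shares that were not alike in the libraries and were not tested. Klf10-201 held 94.6, 67.88 and 77.14%, and Klf10-202 held 3.26, 29.98 and 21.71%. Kallisto gave a different division: the 326-base Klf10-204 held 55.9, 55.7 and 52.2% of the gene and Klf10-201 held 36.6, 38.5 and 40.9%, whereas Klf10-204 was at 0% in all 3 libraries of the first table. In the other 9 members the same transcript led in both tables, although Klf2 and Klf16 have only 1 annotated transcript. The mean TPM of kallisto was between 0.43 and 0.594 times that of the gene table for those 9 members, and 0.996 times for Klf10. By mean TPM in kallisto's table Klf10 (7.03) and Klf3 (6.87) came before Klf13 (6.09) and Klf7 (5.43).

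**Figure D3:**
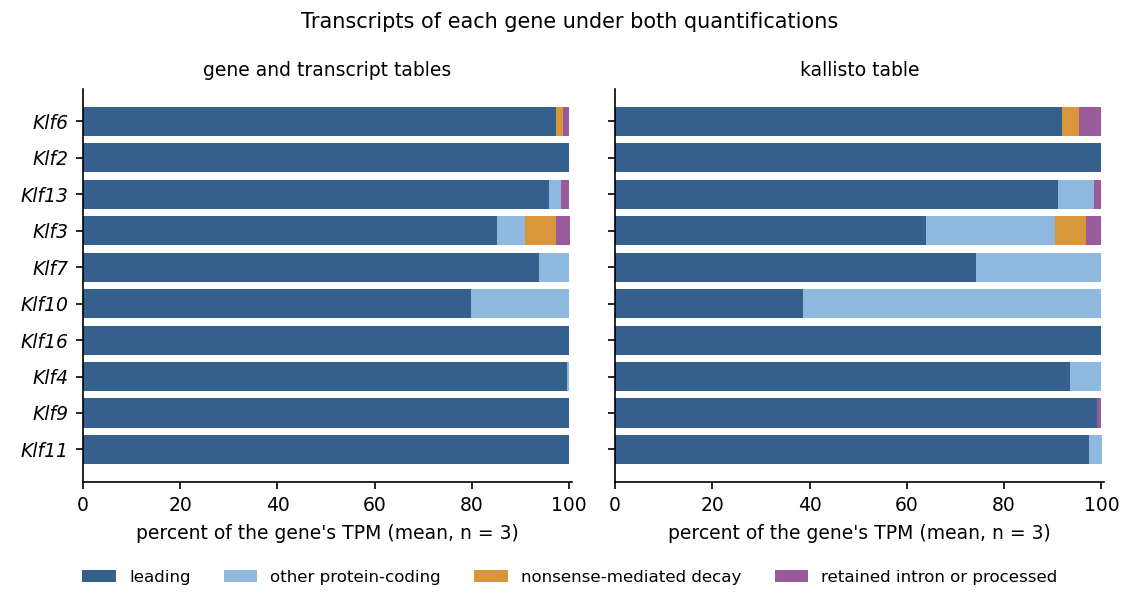
Mean percent of each gene's TPM (n = 3, no error bars) in the leading transcript, other protein-coding transcripts, transcripts annotated for nonsense-mediated decay, and retained-intron or processed transcripts, from the gene and transcript tables at left and kallisto's table at right. Klf10 shows the largest change between the tables: its leading transcript holds 79.9% at left and 38.7% at right.

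Retained-intron transcripts of 3 members were given a share of the gene's TPM in these libraries of the cytosolic fraction. They held 1.97, 0.59 and 1.17% of Klf6, 2.8, 1.03 and 2.67% of Klf3, and 2.67, 0.9 and 1.4% of Klf13 in replicates 1, 2 and 3. Kallisto's table gave the Klf6 transcript a larger share, 8.59, 1.97 and 3.18%. In each of these genes replicate 2 was lowest in both tables, as it was for Malat1 and Neat1. The part of nuclear RNA in these shares was not tested. The mean shares of the first table lie at the 49.5th percentile for Klf6, the 61.7th for Klf3 and the 55.9th for Klf13 among 5769 genes that have such a transcript.

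Of 16 other Klf and Sp genes, 4 averaged 1 TPM or more, and all 4 were Sp genes. The members were chosen with earlier results of these data known, so low levels of the Klf genes left outside may follow from that choice. Sp3 had 11.3 ± 2.1 TPM, Sp1 9.48 ± 2.55 TPM and Sp2 4.93 ± 0.956 TPM (SD, n = 3), none of them called. Sp4 had 1.48 ± 0.295 TPM and stood −2.21 ± 0.08 (log2, SE) from the median gene (adjusted p = 1.4e-05, limma). The other 12 were under 1 TPM, with the highest, Klf8, at 0.38, 0.25 and 0.3 TPM. Klf1, the erythroid member, had 1, 7 and 2 counts. Klf14, Klf17 and Sp9 had 0 counts in every library, and a count of 0 allows up to 0.0469, 0.0417 and 0.0433 CPM in replicates 1, 2 and 3, for counting error only.

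**Figure D4:**
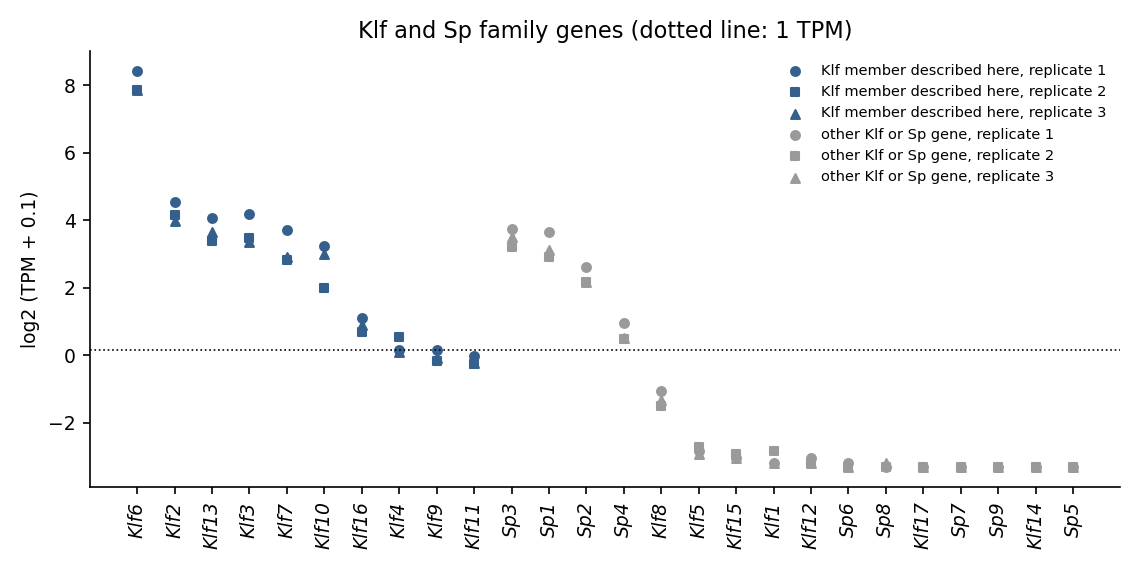
Level as log2(TPM + 0.1) of the 10 Klf genes described here (blue) and of the 16 other Klf and Sp genes (grey), with 1 point per library (n = 3) and a dotted line at 1 TPM. Among the other genes Sp3, Sp1, Sp2 and Sp4 lie above the line, and all others lie below it.

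All 14 coregulators listed as partners of Klf proteins were tested, with 5 called above the median gene, none below and 9 not called. Over all genes tested, 26.3% were called above and 24.5% below, and the list was not tested against these shares. The corepressor genes Ncor1, Ctbp1 and Sin3b had 42 ± 6.51, 33.6 ± 7.53 and 31.3 ± 9.46 TPM (SD, n = 3), and Ep300, the acetyltransferase p300, had 17.4 ± 4.4 TPM. Sin3a, the paralog of Sin3b, had 6.97 ± 1.99 TPM and was not called.

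Of 17 genes listed as acting upstream of Klf2, Klf4, Klf6 or Klf10, 4 were called above, none below and 13 not called. The shares over all genes tested were 26.3% above and 24.5% below, so the 4 above lie near the background. The TGF-β receptor gene Tgfbr2 had 27.2 ± 9.01 TPM (SD, n = 3). Genes of the MEF2 family, known as activators of Klf2 and Klf4 in endothelium, were the others: Mef2c had 26.7 ± 5.65, Mef2a 20.8 ± 5.59 and Mef2d 16.9 ± 2.51 TPM. Mapk7, the kinase ERK5 that activates MEF2 proteins, had 6.82 ± 0.982 TPM and was not called.

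Of 9 genes for ubiquitin ligases listed as acting on Klf proteins, 8 were tested, with 1 above, 3 below and 4 not called. These counts were not tested against the shares over all genes tested, 26.3% above and 24.5% below. Wwp1, a ligase of Klf2, had 84.1 ± 17.2 TPM (SD, n = 3) and stood 3.53 ± 0.07 above the median gene (log2, SE). Itch had 11.9 ± 3.59, Fbxw7 8.28 ± 1.29 and Smurf2 5.42 ± 1.38 TPM, none of them called. Btrc, Vhl and Siah1a, at 2.45 ± 0.761, 2.29 ± 0.756 and 1.98 ± 0.477 TPM, were called below it.

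Of 15 genes listed as Klf targets in other cells, 11 were tested, with 6 above, 2 below and 3 not called. The shares over all genes tested were 26.3% above and 24.5% below, and the list was not tested against them. The highest were Lgals3 at 1476 ± 252 TPM, the cell cycle inhibitor Cdkn1a at 351 ± 118 TPM, the chemokine Ccl5 at 97.9 ± 27.9 TPM and the haem oxygenase Hmox1 at 90.9 ± 17 TPM (SD, n = 3). The integrin Itgb7, at 1.62 ± 0.575 TPM, and thrombomodulin (Thbd), a Klf2 target of endothelium, at 1.39 ± 0.275 TPM, were called below the median gene. The levels of target genes are not a measure of Klf activity.

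By distance over the 3 libraries in log2(TPM + 0.1) from the library's median gene, the genes most like Klf6 among 14388 included Eef2 (0.0757) and Rps18 (0.0868), and those most like Klf11 were Med26 (0.0573), Serf1 (0.103) and Ppp1r13l (0.103). With 3 libraries this distance mainly compares levels.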

How the data were processed

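Per the labels, total RNA of the cytosolic fraction was depleted of ribosomal RNA, and each library was sequenced and deposited separately. Per the file headers, the gene and transcript tables give the authors' expected counts, TPM and FPKM, in columns named as RSEM writes them, with the posterior SD of a count, an other value in counts. Per the file headers, the transcript tables also give, for each transcript, its percent of the gene's TPM. The authors' second transcript table holds estimated counts and TPM as kallisto writes them. Per the deposited description files, mm10 and GENCODE M21 were used. The aligner, the versions and any use of strand: not given in the sources used here.

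From these, log2(TPM + 0.1), centred in each library on the median protein-coding gene (mean of 1 TPM or more), was fitted with an intercept in limma 3.58.1 (treat, band of 1, trended prior) in R 4.3.3, with Benjamini-Hochberg adjustment at 0.05 over all genes tested. Expected counts were rounded, filtered with filterByExpr and scaled by TMM in edgeR 4.0.16. A chi-square test compared them with effective library sizes, and percentiles of the biological coefficient of variation were taken in 20 abundance bins. Rows that name no annotated gene held 0.26, 0.0933 and 0.0577% of the counts in replicates 1, 2 and 3 and were left out. Both fits were tested on simulated data. Promoters are from RefSeq (GRCm38.p6) and 3′UTRs from GENCODE M21 transcripts. DESeq2 1.42.0 was used as an alternative, besides kallisto's values, other scalings, filters, pseudocounts and bands, and leaving out each replicate.

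The members, lists and rule for named genes were chosen with earlier results of these data known. The rule names all members, other family genes of at least 1 TPM and the highest of the rest, the 4 highest genes of each list with any called below the median gene, and the 3 nearest genes to the highest and lowest member. Ep300, Sin3a, Mapk7, Klf1, Klf14, Klf17 and Sp9 were named after their values were seen. Some genes that the rule names are not reported here.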

Additional observations from a re-analysis of the deposited data

How the results depend on the processing

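The number of members called above the median gene, 2 of 8 tested against 26.3% of all genes, was 1 of 6 with kallisto's TPM (24.1% of all genes), 1 of 6 with a minimum mean of 5 TPM (22.3%), 3 of 10 with TPM rescaled over nuclear protein-coding genes (28.6%), 5 of 8 with a band of 0 (46.1%), 6 of 10 with no filter on low values (35.8%), and 6 of 10 with kallisto's TPM and no filter (38.8%), an alternative chosen after seeing the data. The number called below it, 2 of 8 against 24.5%, was 4 of 10 with rescaled TPM (29.2%), where Klf9 and Klf11 entered the test. It was 0 of 10 with kallisto's TPM and no filter (41.5%). It was 0 with kallisto's TPM and 0 with a minimum of 5 TPM because Klf4 and Klf16 fell under the filter and were not tested, so these counts say nothing about their calls. With no filter it was 2 of 10 (39.3%), but these were Klf9 and Klf11 in place of Klf4 and Klf16. Klf6 was called above the median gene under every alternative run, and leaving out any replicate left 2 members above and 2 below.

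Klf10, near the median gene, turned positive with kallisto's TPM (0.67), rescaled TPM (0.24), no filter (1.46), and kallisto's TPM and no filter (3.24), and ranged from −0.26 to 0.12 when a replicate was left out, positive without replicate 2. With a minimum of 5 TPM the levels of Klf7 (−0.63), Klf3 (−0.10) and Klf13 (−0.08) turned negative, and Klf16 turned positive (0.28) with kallisto's TPM and no filter. A filter changes which genes are tested and so moves the median. For kallisto's values the cause was not tested.

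The difference of Klf13 from Klf3 reversed with kallisto's TPM (−0.17) and ranged from −0.11 (without replicate 3) to 0.11 when a replicate was left out, that of Klf7 from Klf10 with kallisto's TPM (−0.32), and that of Klf3 from Klf7 with counts per kb of annotated exon (−0.62), and the cause was not tested. The number of neighbouring pairs beyond their spread ranged from 4 to 7 when a replicate was left out, where the measure rests on 2 libraries. The number of members differing beyond counting noise was 6 without replicate 1 (46.4% of all genes), 6 without replicate 2 (44.8%), 8 without replicate 3 (43.1%), 9 with no filter on low counts (39% of all genes) and 10 with kallisto's counts (63.5%). The median share of the leading transcript was 92.7% with kallisto's TPM, against 98.4%.

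No paired analysis was possible because the study has 1 group. The low members rested on fewer counts, with 254 for Klf4 in replicate 1. The counts of Klf4 nevertheless differed between libraries beyond counting noise (adjusted p = 1.2e-25, chi-square test).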
